A study of Mus musculus with 4 samples.

Results

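Gastric pit-like cells were 190 of the 1289 cells kept in 1 of the 2 Lats-deleted libraries of the mouse small-intestinal epithelium, Lats-deleted library 2, and of 3304 cells kept in all 4 libraries. Barcodes counted as kept cells if they held 1000 counts or more, had counts for 300 genes or more, and took at most 30% of their counts from mitochondrially encoded genes. A kept cell of this library was called pit-like when Gkn1, Gkn2 and Tff1, the 3 rule genes, together held at least 1% of its counts while Pgc and Muc6 together held under 0.3%. The members were thus chosen on their own counts, so the levels of these 5 genes are a description of the choice and not a finding. All other values below describe the same cells of 1 library. No test across replicates can be made, and the 95% intervals given cover counting error only. A gene was called higher or lower at a ratio of at least 2-fold, by size alone, among genes with at least 5 counts expected in the pit-like cells.

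All 4 libraries came from adult C57BL/6J mice with loxP-flanked Lats1 and Lats2 alleles (Lats1fl/fl Lats2fl/fl), and inDrop v2 was the single-cell method. Control libraries 1 and 2 carried no Cre, and Lats-deleted libraries 1 and 2 also carried Lrig1-CreERT2, a Cre recombinase that tamoxifen activates and that is made where Lrig1 is expressed. Tamoxifen (2 mg, intraperitoneal) had been given to all mice, tissue was collected at day 7, and 5000 cells per condition had been sorted as EpCAM-positive and CD45-, TER119- and DAPI-negative. The labels do not say which cells had recombined, or whether each library was a separate animal.

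Pit cells, also called foveolar or surface mucous cells, line the surface and the pits of the stomach. They secrete a mucus gel with trefoil peptides and gastrokines, and they renew from progenitors in the isthmus of the gastric gland. Pit cells are a cell type of the stomach and not of the small intestine, where goblet cells make the mucus. In the Hippo pathway, the kinases LATS1 and LATS2 phosphorylate YAP and TAZ and so hold these coactivators outside the nucleus.

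The control libraries gave 774 and 515 kept cells and the Lats-deleted libraries 726 and 1289, with median counts per cell of 1708, 1995, 3716 and 3848. The kept cells of the 4 libraries shared between 4 and 12 barcodes in each pair of libraries, and 2 barcodes of the pit-like cells were also kept in control library 2. Xist, the RNA that coats the inactive X chromosome of female cells, was at 640 and 505 CPM (counts scaled to a library total of 1000000) in the Lats-deleted libraries and at 9.35 and 6.51 in the controls, so sex and genotype cannot be told apart between these groups. Lats1 was at 20.6 and 32.6 CPM in the controls, 7.58 in Lats-deleted library 1, 5.002 in the pit-like cells from 4 counts and 10.5 in the other kept cells of their library. Lats2 was at 8.11 and 9.77 CPM in the controls, 29.8 in Lats-deleted library 1, 18.8 in the pit-like cells and 21.7 in the other kept cells. The sources used here do not give where the counted tags lie relative to the deleted exons, so these levels do not check the deletion.

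No cell met the rule in the other 3 libraries. Lats-deleted library 2 held 14.7% pit-like cells (exact binomial interval 12.8 to 16.8%). The 0 cells in control libraries 1 and 2 and Lats-deleted library 1 have upper limits of 0.475%, 0.714% and 0.507% by the same interval. The highest share of rule genes in any kept cell of those libraries was 0.0970%, 0.136% and 0.0783%, against a median of 3.04% and a range from 1.02 to 20.5% in the pit-like cells. The cells just inside the threshold had 1.02, 1.02 and 1.04%, and those just outside had 0.965, 0.924 and 0.924%, so no gap separated members from the rest. A further 7 cells had at least 1% of rule genes and were left out for their Pgc and Muc6. The pit-like cells held 799655 of the 5826856 counts of kept cells (13.7%), with a median of 3641 counts and 1486 genes per cell against 3930 counts and 1832 genes in the other kept cells. Their median mitochondrially encoded share was 4.28% against 3.83%.

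**Figure D1:**
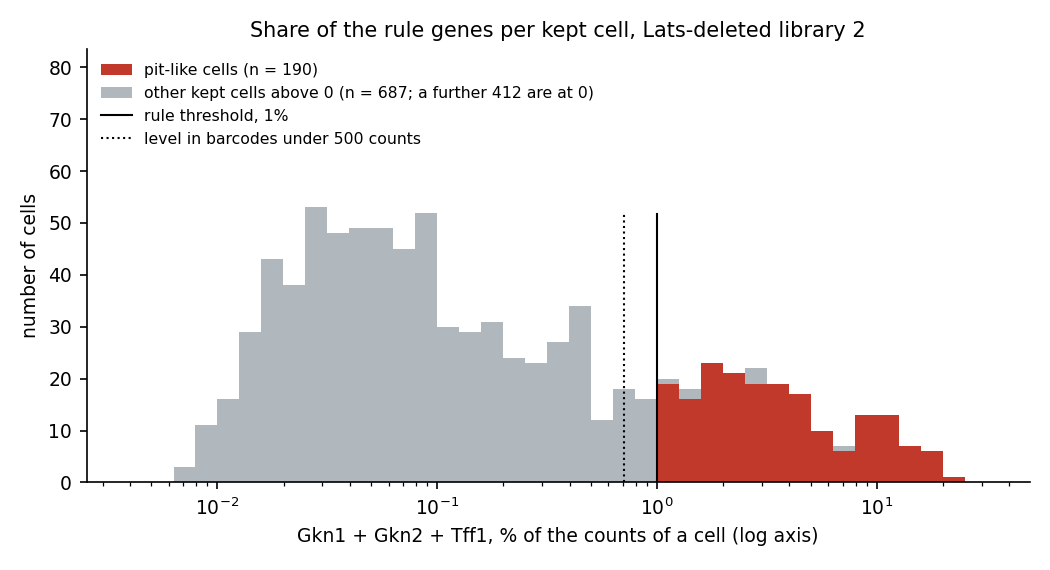
Number of kept cells of Lats-deleted library 2 (y axis) by the share of their counts from Gkn1, Gkn2 and Tff1 (x axis, %, log scale); red marks the 190 pit-like cells, grey the other kept cells above 0, and 412 cells at 0 are not drawn. Grey bars above the 1% line are the 7 cells left out for Pgc and Muc6; the cells form a continuous range across the line, and the dotted line is the pooled share of 0.707% in barcodes under 500 counts.

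Tff1 carried the rule. Of 35505 counts of the rule genes in the pit-like cells, 32150 (90.6%) were of Tff1, a trefoil peptide that pit cells secrete with their mucins, and all 190 cells had it. Gkn1, a gastrokine that gastric surface cells secrete, had 1779 counts in 92 cells (48.4%). Gkn2, a second gastrokine known to pair with TFF1, had 1576 counts in 71 cells (37.4%). Both gastrokines were counted in 60 cells, Gkn1 alone in 32, Gkn2 alone in 11 and neither in 87. The 2 markers outside the rule, Vsig1 and Aldh3a1, were counted in 172 cells, in which at least 1 of them had a count, and 140 cells had at least 3 of the 5 markers. All 5 were counted in 36 cells.

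The gastrokine genes lie together on mouse chromosome 6. Gkn1 spans 87345650 to 87350942 on the minus strand and Gkn2 spans 87373357 to 87379497 on the plus strand of GRCm38 (the assembly of mm10, GENCODE M21 annotation). Their neighbour Gkn3 had another pattern, 20.01 CPM in the pit-like cells against 69.6 in the other kept cells. Of the 350 Gkn3 counts of the other kept cells, 249 were in the 18 gland-like cells (4164 CPM), which are kept cells with at least 0.3% of Pgc and Muc6. Gkn3 was at 27.6 CPM in other cells with a Cldn18 count and at 11.8 in those without one. The interval of the pit-like level, 11.4 to 32.5 CPM, includes both values. Gkn1 and Gkn2 are among the rule genes, and Gkn3, beside them, had 16 counts in the pit-like cells. For this reason the 250 bases before the RefSeq start of these 3 gastrokine genes are shown. They are at chr6:87350916-87351165 (minus strand), chr6:87373115-87373364 (plus strand) and chr6:87388936-87389185 (minus strand) of GRCm38.p6. Capitals mark matches, on either strand, to 4 motifs, where N is any base and no matches overlap. GATA factors are known to bind GATAAG. Forkhead factors are known to bind TGTTTNC. The AP-1 motif is TGANTCA, and the TATA box was searched as TATAAA. The TEAD motif CATTCC was also searched and is in none of the 3 windows.
Gkn1: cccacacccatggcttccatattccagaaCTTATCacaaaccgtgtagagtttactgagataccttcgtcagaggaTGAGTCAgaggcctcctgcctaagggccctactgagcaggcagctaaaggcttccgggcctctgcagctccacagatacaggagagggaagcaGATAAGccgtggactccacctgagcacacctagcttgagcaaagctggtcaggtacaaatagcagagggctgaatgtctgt
Gkn2: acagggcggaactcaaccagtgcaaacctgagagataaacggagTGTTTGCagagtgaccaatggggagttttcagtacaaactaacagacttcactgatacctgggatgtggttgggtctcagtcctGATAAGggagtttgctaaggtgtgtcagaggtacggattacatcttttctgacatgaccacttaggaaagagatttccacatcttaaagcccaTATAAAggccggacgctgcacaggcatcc
Gkn3: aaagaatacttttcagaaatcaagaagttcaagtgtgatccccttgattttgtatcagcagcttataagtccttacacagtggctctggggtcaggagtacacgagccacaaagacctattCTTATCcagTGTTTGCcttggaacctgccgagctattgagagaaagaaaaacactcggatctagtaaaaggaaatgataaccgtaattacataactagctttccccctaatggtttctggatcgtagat

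GATAAG was present in all 3 windows, including that of Gkn3, and in that of Vsig1 28 bases before its start. Cldn18, which was also higher in the pit-like cells, has 2 windows, each with forkhead matches and without GATAAG. Of all 32851 RefSeq promoter windows of this length, 6.55% hold GATAAG and 17.8% hold the forkhead motif. The AP-1 motif is in 6.75% of them, the TATA box in 12.4% and the TEAD motif in 12.6%. The matches are letters in these windows and say nothing of binding. Of the 5 markers, 3 had a promoter in the table used.

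The levels of the 3 rule genes follow from the choice of cells and are given as a description. The other kept cells were divided into the 18 gland-like cells, 537 Cldn18-positive cells (at least 1 count of Cldn18) and 544 remaining cells with no count of it. Tff1 stood at 40205 CPM in the pit-like cells, 13261 in gland-like, 1262 in Cldn18-positive and 266 in remaining cells, and at 1.12, 0.624 and 4.07 in Lats-deleted library 1 and the controls. Gkn1 stood at 2225, 1120, 14.6 and 11.4 CPM in the same 4 sets and at no more than 0.842 in the other libraries. Gkn2 stood at 1971, 1070, 6.34 and 9.18 CPM and at no more than 1.63 elsewhere. A single gland-like cell, with 7.18% of rule genes and left out of the pit-like cells for its Pgc and Muc6, held 56 of the 67 Gkn1 counts, 57 of the 64 Gkn2 counts and 475 of the 793 Tff1 counts of the gland-like set. Without it the other 17 gland-like cells had Gkn1 at 213 CPM, Gkn2 at 136 and Tff1 at 6162, a comparison added after seeing the data.

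The markers that the rule did not use were also highest in the pit-like cells. Vsig1, a junction protein of the gastric epithelium, was at 485 CPM (interval 438 to 536) in pit-like, 301 in gland-like, 144 in Cldn18-positive and 28.9 in remaining cells, and at 7.58, 1.87 and 2.44 in Lats-deleted library 1 and the controls. Aldh3a1, an aldehyde dehydrogenase, was at 1044 CPM (975 to 1118) in pit-like cells, 267 in Cldn18-positive, 151 in gland-like and 25.4 in remaining cells, and at 2.25, 2.49 and 1.63 in the other libraries. Against all 1099 other kept cells, Vsig1 was 5.18-fold and Aldh3a1 6.70-fold higher. The gland-like levels rest on 18 counts of Vsig1 and 9 of Aldh3a1, of which 1 and 8 were in the cell with 7.18% of rule genes. Without that cell the gland-like interval of Vsig1, 192 to 527 CPM, includes the pit-like level.

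**Figure D2:**
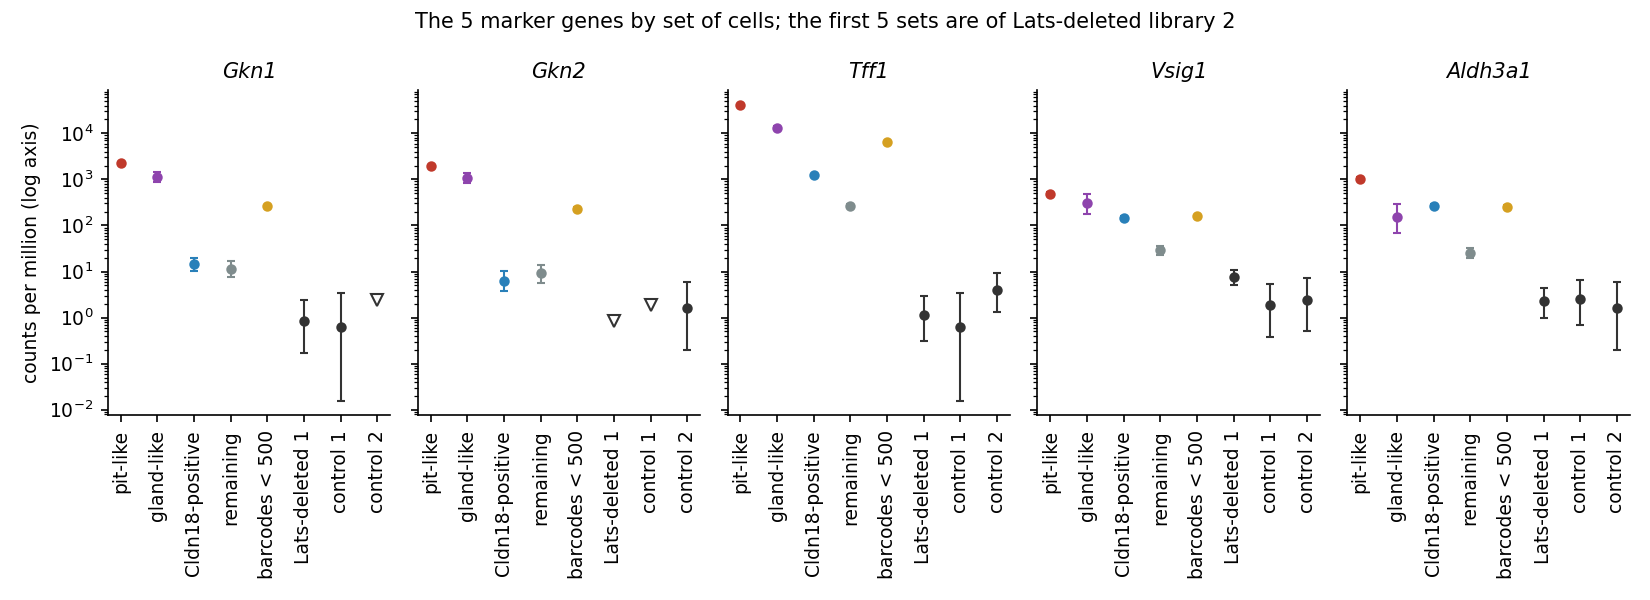
CPM (y axis, log scale) of the 5 marker genes in sets of cells of Lats-deleted library 2 and in all kept cells of the other 3 libraries; bars are 95% counting intervals, and open triangles mark a count of 0 drawn at the level of 3 counts. Vsig1 and Aldh3a1, which the rule did not use, are highest in the pit-like cells, and Tff1, Gkn1 and Gkn2 are higher in barcodes under 500 counts (Tff1 at 6578) than in the Cldn18-positive and remaining cells.

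Barcodes with few counts carried the same transcripts. In Lats-deleted library 2, 14898 barcodes with under 500 counts held the rule genes at 0.707% of their counts, against 0.000348%, 0.00492% and 0.00894% in such barcodes of control libraries 1 and 2 and Lats-deleted library 1. Tff1 was at 6578 CPM there. Of the 1099 other kept cells, 1067 had a lower share of rule genes than these barcodes, and 412 had none. Whether RNA outside cells contributed to the low levels of pit genes in other cells was not tested. With each cell thinned to 1000 counts, Tff1 was counted in 100% of pit-like, 43.4% of Cldn18-positive and 24.8% of remaining cells, whose medians before thinning were 3641, 4542 and 3414 counts. Unthinned, the shares were 100%, 67.4% and 52.0%. Gkn1 was counted in 34.7% of thinned pit-like cells against 1.86% and 0.919%, and in 48.4%, 4.66% and 4.60% before thinning. In Lats-deleted library 1, which had no cell meeting the rule, Tff1 was counted in 0 of 726 thinned cells and in 0.551% of unthinned cells.

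Across all 10443 genes compared, 341 (3.27%) were at least 2-fold higher in the pit-like cells and 2109 (20.2%) at least 2-fold lower. The median log2 ratio of all genes was -0.39. TMM scaling moved every log2 ratio up by 0.20, and then 503 genes were higher and 1534 lower. The lists of genes below are read against the 3.27% and 20.2% of all genes and against the median of -0.39.

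**Figure D3:**
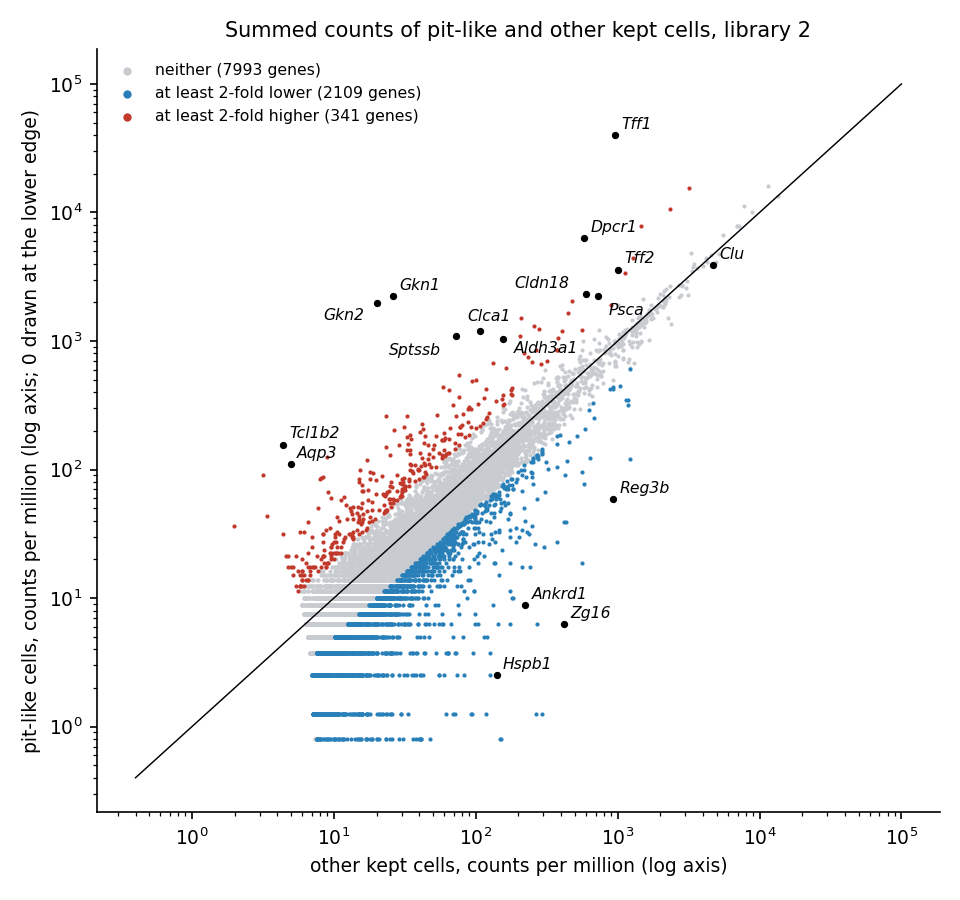
CPM of each compared gene in the pit-like cells (y axis) and in the other kept cells of Lats-deleted library 2 (x axis), both on log scales, with the line of equality. The 341 genes at least 2-fold higher are red and the 2109 at least 2-fold lower are blue; Tff1, Gkn1 and Gkn2 lie farthest above the line, and Zg16, Ankrd1 and Hspb1 far below it.

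Genes of gastric surface mucous cells were high together. Of 17 listed pit genes that could be compared, 16 were at least 2-fold higher, including the 3 rule genes, and none was lower, with a median log2 ratio of 1.97 (1.92 without the rule genes). Capn8, Capn9, Gsdma, Gsdma2, Gsdma3 and Fut9 had too few counts to be compared. The 23 genes of the list that the files hold made up 6.33% of counts in pit-like cells and 2.24% in gland-like cells. They made up 0.686% in Cldn18-positive cells and 0.278% in remaining cells. Their share was 0.184% in Lats-deleted library 1 and 0.189% and 0.209% in the controls. In the pit-like cells, 35505 of the 50602 counts of these genes were of the 3 rule genes. Most of the 6.33% thus follows from the choice of cells. The list was drawn up with earlier results of these data known, so its direction is no independent evidence. Muc5ac, the secreted mucin of pit cells, is not analysed here.

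Among the pit genes outside the rule, Dpcr1, a mucin-like gene also known as Mucl3, was at 6299 CPM in pit-like cells. Its level was 987 CPM in gland-like, 850 in Cldn18-positive and 255 in remaining cells. In Lats-deleted library 1 and the controls it was at 40.1, 8.73 and 14.7. It was counted in 94.2% of thinned pit-like cells. Cldn18, the claudin that seals the gastric epithelium, was at 2320 CPM against 594 in the other kept cells and 4.77 in Lats-deleted library 1, and 95.3% of pit-like cells had a count of it. Muc1, a membrane mucin, was at 1060 CPM in pit-like cells, 1003 in gland-like and 620 in Cldn18-positive cells, with 9.54 in Lats-deleted library 1 and no count in either control. Ctse, an aspartic protease of surface mucous cells, was at 1666 CPM against 445, and Anxa10, an annexin of gastric epithelium, at 1249 against 281. Psca, a small surface protein anchored to the membrane, was at 2221 CPM against 728, and it was also at 837 in Lats-deleted library 1. Thus Psca differed from Dpcr1, Cldn18 and Muc1 in being abundant in the library without pit-like cells. Lypd8, with 294 CPM against 247, was the listed gene that was not 2-fold higher.

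After the 3 rule genes, Tcl1b2, Aqp3, Sptssb and Dpcr1 had the highest lower bounds of the ratio. Tcl1b2 was at 156 CPM in the pit-like cells (125 counts) and 4.38 in the other kept cells, 35.7-fold higher (22.6 to 59.0), and had no count in the other 3 libraries. Aqp3, a channel for water and glycerol, was 22.1-fold higher, with 110 against 4.97 CPM. Sptssb, a small subunit of the enzyme that starts sphingolipid synthesis, was 15.1-fold higher, with 1093 against 72.4 CPM and 72.7 in Lats-deleted library 1. Clca1 (11.1-fold), Cybrd1 (14.0-fold), Nqo1 (11.2-fold), Arc (10.6-fold), Sytl2 (10.5-fold), Pla2g10 (10.5-fold), Cyp2s1 (7.97-fold) and AA467197 (7.51-fold) followed. Several of these were also abundant in the control libraries. Clca1, a secreted protein of goblet mucus, was at 1191 CPM in pit-like cells and at 1613 and 3013 in the controls. Cybrd1, an iron reductase of enterocytes, was at 125 CPM against 243 and 166 in the controls. Nqo1, a quinone reductase, was at 263 CPM against 108 and 65.9. Some of these levels rest on few pit-like cells. Cybrd1 was counted in 24 of them and Arc in 27, and 5 cells held 55.0% and 42.0% of their counts. For Clca1 and Nqo1, 5 cells held 36.1% and 19.5%. Clca1 was also at 870 CPM in the gland-like cells, from 52 counts.

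Of 8 gland and neck genes compared, 6 were lower in the pit-like cells, 1 was higher and 1 was neither. The 6 include Pgc and Muc6, which the rule required to be low, and the median log2 ratio was -2.01 with them and -1.40 without them. Tff2, the trefoil peptide of gastric neck cells, was at 3599 CPM in pit-like cells against 1117 in Cldn18-positive and 158 in remaining cells, and at 28395 in gland-like cells, so pit-like cells lay between them. Cd44, a hyaluronan receptor, was 4.64-fold lower and Glipr1 6.43-fold lower than in the other kept cells, but Glipr1 had no count in the gland-like cells. Wfdc2, which was neither, was at 1084 against 1348 CPM. The parietal proton pump genes Atp4a and Atp4b and the intrinsic factor gene Gif had no count in the pit-like cells. All 6 stomach endocrine genes compared were lower in summed counts, which rest on few cells of the comparison set. Of the Chgb counts of the other kept cells, 89.3% were in 5 cells, and Sst was counted in 0.819% of the other kept cells and 2.11% of the pit-like cells. Gast, which codes for gastrin, was at 18.8 CPM against 5686 in gland-like and 924 in Cldn18-positive cells. A single cell held 42.2% of the 2836 Gast counts of the other kept cells, and against the remaining cells alone Gast was not lower (ratio 2.26).

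Listed transcription factors of stomach and intestine differed in the direction of their calls. Of 14 compared factors of the stomach list, 6 were higher, none was lower and 8 were neither. Of 11 compared factors of the intestinal list, none was higher, 6 were lower and 5 were neither. In pooled counts the intestinal list was not lower, at 0.0988% in pit-like cells against 0.0914% in the other kept cells. The stomach list held 0.344% against 0.160%. Klf4, a zinc-finger factor of differentiated epithelium, was at 679 CPM against 133 (5.11-fold, 4.55 to 5.73) and Foxa3, a forkhead factor, at 61.3 against 11.7 (5.22-fold, 3.50 to 7.76). Foxq1, a forkhead factor needed for Muc5ac expression in pit cells, was at 1188 CPM against 403, and it was also at 372 and 235 in the controls. Sox21 was 2.59-fold, Gata4 2.36-fold and Pdx1 2.17-fold higher, and the controls had Gata4 at 121 and 108 CPM and Pdx1 at 76.1 and 66.7. Sox2, a factor of foregut identity, had 8 counts and was at 10.004 CPM against 14.9, within counting error (ratio 0.671, interval 0.279 to 1.39). Cdx2, the homeobox factor of intestinal identity, was at 6.25 CPM from 5 counts against 26.1 in Cldn18-positive cells, 72.1 in remaining cells, 105 in Lats-deleted library 1 and 67.3 and 73.3 in the controls. Cdx1 had 1 count, a ratio of 0.175 (interval 0.00430 to 1.04), and Isx, an intestinal homeobox factor, had 3 counts, a ratio of 0.199 (0.0402 to 0.598). Hnf4a, a factor of both small intestine and gastric epithelium, was at 119 CPM against 99.1, and Onecut2 at 712 against 572.

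**Figure D4:**
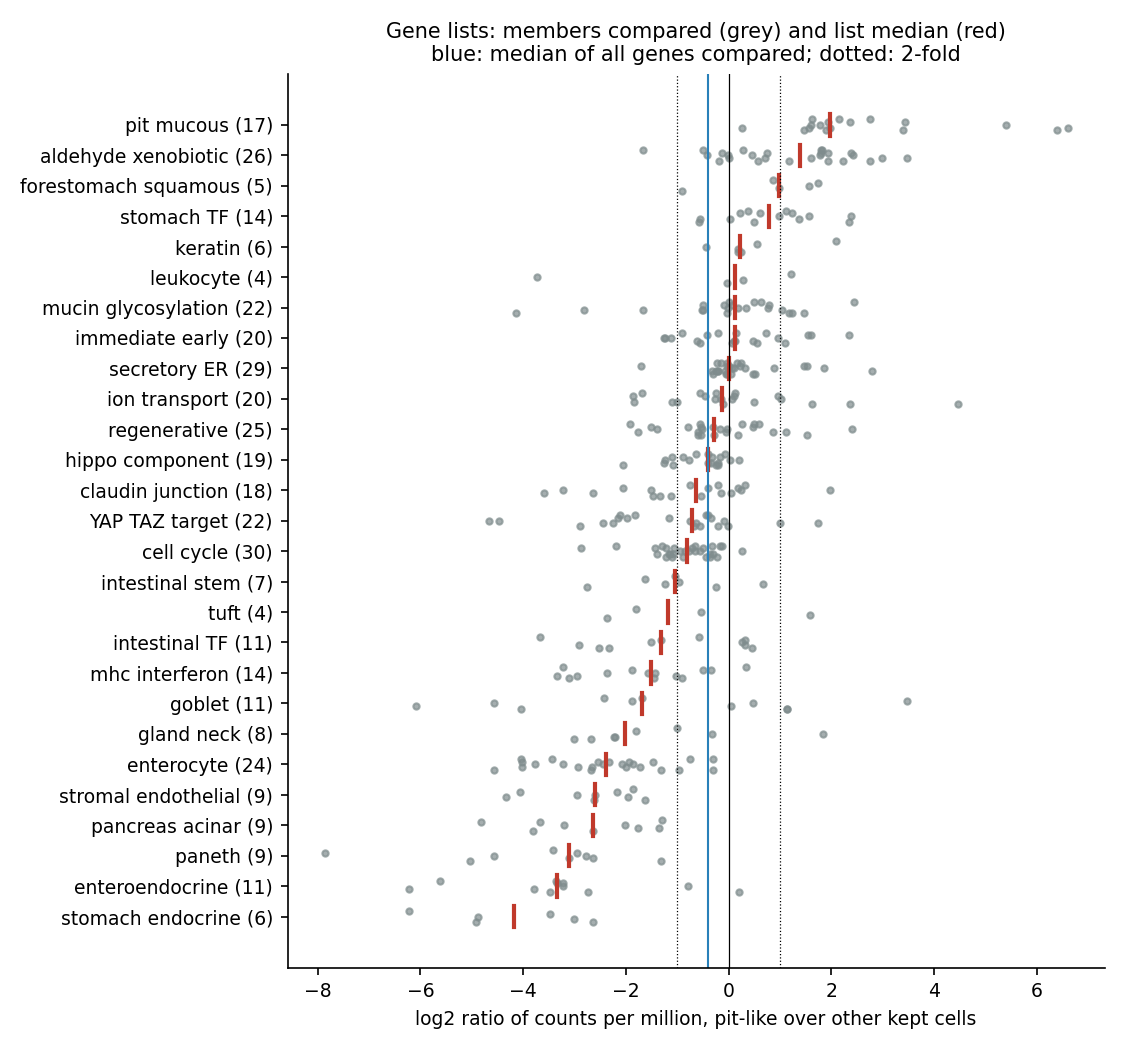
Log2 ratio of CPM, pit-like over other kept cells (x axis), of each compared member (grey points) of the gene lists with at least 4 compared members (y axis, number in brackets), with list medians in red and the median of all genes, -0.39, in blue. The list of the 5 markers and that of sex-linked genes are not drawn; of the lists drawn, pit mucous genes have the highest median (1.97) and stomach endocrine genes the lowest (-4.18).

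Intestinal lineage genes were mostly low. Of 24 compared enterocyte genes, 20 were lower and none higher, with a median log2 ratio of -2.38. The enterocyte list held 0.0328% of counts in pit-like cells and about the same in gland-like cells, 0.0368% from 22 counts. Its share was 0.0701% in Cldn18-positive cells and 0.323% in remaining cells. Fabp1, the fatty acid-binding protein of enterocytes, had 2 counts (ratio 0.0422, interval 0.00509 to 0.154), and Apoa1, an apolipoprotein, was at 27.5 CPM against 374 in the other kept cells and 5659 and 5441 in the controls. Cdh17, the intestinal cadherin, was 9.36-fold lower and Cldn3 12.0-fold lower. Goblet genes divided: Zg16 was at 6.25 CPM against 422, Tff3 at 21.3 against 115, and Muc2 had 3 counts (ratio 0.0610, interval 0.0125 to 0.180), whereas Clca1, Spink4 (2.19-fold) and Rep15 (2.21-fold) were higher. Of the Zg16 counts of the other kept cells, 98.4% were in 5 cells. Tff3 was counted in 3.68% of pit-like and 3.37% of other kept cells, so it was not found in fewer cells. In pooled counts the goblet list was not lower, at 0.167% in pit-like cells against 0.108%. At least 1 count of the goblet list was found in 80.5% of pit-like and 43.5% of other kept cells. Of 11 compared enteroendocrine genes 9 were lower and none higher, of 7 intestinal stem cell genes 4 were lower (3 under TMM scaling) and none higher, and of 4 tuft genes 2 were lower and 1 was higher. Any count of the enteroendocrine list was found in 11.6% of pit-like and 15.6% of other kept cells. The highest share of that list in a single cell was 0.167% and 25.4%, so its summed counts depend on a few cells with high levels. All 9 compared Paneth genes were lower, but these rest on few cells: 1 cell held 87.6% of the 1463 Defa24 counts of the other kept cells, and the near-identical Defa copies cannot be told apart with certainty.

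Detoxification genes formed the second group that was high. Of 26 compared genes of aldehyde and xenobiotic metabolism, 14 were higher, including Aldh3a1, and 1 was lower, with a median log2 ratio of 1.39. They held 2.20% of counts in pit-like cells, 0.828% in Cldn18-positive, 0.478% in remaining cells and 0.494% in Lats-deleted library 1, and 1.15% and 1.01% in the controls. Gsta1, a glutathione transferase, was at 7826 CPM against 1450, and also at 3109 and 2809 in the controls. Gsta4 was at 4422 CPM against 1275, Gsto1 at 3406 against 1126, and Cbr3, a carbonyl reductase, at 158 against 33.4. Adh7, an alcohol dehydrogenase of the upper digestive tract, was at 131 CPM against 34.2 and at 1.40 in Lats-deleted library 1, whereas Adh1 was 3.18-fold lower. Reads of Gsta1 and Gsta2, and of Gstp1 and Gstp2, could have been split between near-identical copies.

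Genes that modify and secrete mucins divided, and the general secretory machinery showed little difference. Of 22 compared glycosylation genes, 5 were higher and 3 lower. Fut2, the fucosyltransferase that puts the terminal fucose on gastric mucins, was at 156 CPM against 28.6 (5.46-fold, 4.26 to 6.98), and Gcnt3, a core-branching enzyme of mucin glycans, at 690 against 249. Of 29 compared genes of the endoplasmic reticulum and secretion, 4 were higher and 1 lower, with a median log2 ratio of 0.01. The 4 were Bcas1 (6.89-fold), Ern2, a stress sensor of mucous cells (3.62-fold), Rab3d, a granule GTPase (2.89-fold), and Creb3l1 (2.78-fold). Among ion and water transporters, Car2, a carbonic anhydrase, was at 1314 CPM against 256, and Slc26a9, an anion transporter of gastric epithelium, at 31.3 against 10.1 from 25 counts.

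Krt20, a keratin of differentiated surface epithelium, was at 2036 CPM against 476, and at 1071 and 799 in the controls. Of 5 compared squamous genes of the forestomach, 2 were higher (4 under TMM scaling) and none lower. Krt4 was at 295 CPM against 150 in Cldn18-positive and 17.5 in remaining cells, and Krt13 had 15 counts (2.95-fold, 1.48 to 5.60). In a family looked at after its values were seen, all 4 compared Sprr2 genes were higher, and together the Sprr2 genes held 2.66% of counts against 0.565% in the other kept cells, 0.254% in Lats-deleted library 1 and 0.747% and 0.598% in the controls. High Sprr2 levels were shared with the gland-like cells. Sprr2a2 was at 15719 CPM there against 15433 in pit-like cells, and Sprr2a3 at 11840 against 10591. Sprr2a1 was at 100 against 88.8, and Sprr2b at 351 against 498. Sprr2a1, Sprr2a2 and Sprr2a3 are near-identical, so their split is uncertain.

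Regenerative and fetal-like genes, which mark injured intestinal epithelium, took about the same share of counts in pit-like cells as in the other kept cells. The list held 3.53% of counts in the pit-like cells, 3.32% in the other kept cells and 4.30% in Lats-deleted library 1, against 0.160% and 0.168% in the controls. Of 25 compared genes, 3 were higher and 4 lower. Clu, a secreted chaperone, was at 3890 CPM against 4702, Krt7 at 3958 against 3479 and S100a6, a calcium-binding protein, at 15941 against 11426, and the controls had Clu at 6.86 and 7.33. Ly6d (5.28-fold), Il33 (2.87-fold) and Mal (2.16-fold) were higher. Ly6a, a surface antigen also called Sca-1, was at 349 CPM against 599 in Cldn18-positive cells, 1904 in remaining cells and 2392 in Lats-deleted library 1, and Basp1, Cldn4 and Spp1 were 3.77-fold, 2.86-fold and 2.62-fold lower than in all other kept cells.

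Many YAP and TAZ target genes were lower in the pit-like cells than in the other kept cells of the library. Of 22 compared targets, 10 were lower and 1 higher, with a median log2 ratio of -0.71 beside -0.39 for all genes. Ctgf, a matricellular target, was at 77.5 CPM against 472 in Cldn18-positive cells, 705 in remaining cells and 794 in Lats-deleted library 1, and at 3.74 in control library 1 with no count in control library 2. Cyr61 was at 35.02 CPM against 191, Amotl2 at 105 against 373, and Ankrd1 at 8.75 from 7 counts against 223. Ankrd1 was counted in 280 of the other kept cells, and 1 cell held 3.12% of its counts there. Nt5e, a surface nucleotidase, was 3.36-fold higher. The target list held 0.160% of counts in pit-like cells, 0.311% in the other kept cells, 0.421% in Lats-deleted library 1 and 0.0392% and 0.0320% in the controls. Within the other kept cells, the gland-like set had 0.107%, from 64 counts, so a low share was not particular to the pit-like cells. Yap1 was at 37.5 CPM against 64.1 and Wwtr1, which codes for TAZ, at 37.5 against 69.8, neither 2-fold lower, and of 19 compared Hippo pathway genes 5 were lower (3 under TMM scaling) and none higher. Hspb1, a small heat shock protein, had 2 counts (ratio 0.0178, interval 0.00216 to 0.0647), and Igfbp7 had 3 (ratio 0.0296, 0.00608 to 0.0868).

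Cell-cycle genes, read as transcripts and not as a count of dividing cells, held 0.194% of counts in pit-like cells, 0.466% in Cldn18-positive, 0.253% in remaining cells and 0.203% in Lats-deleted library 1. Of 30 compared, 12 were lower and none higher, and 7 were lower under TMM scaling. Genes of antigen presentation and the interferon response were also low, with 10 of 14 compared lower and none higher. B2m, the light chain of class I molecules, was at 124 CPM against 245 in Cldn18-positive, 1111 in remaining cells and 1343 in Lats-deleted library 1, and H2-K1 was 2.72-fold lower.

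Markers of cells outside the epithelium were near 0. The 15 leukocyte genes held 0.00938% of counts in pit-like cells and 0.0110% in the other kept cells, with no count of Cd3e, Cd8a, Tyrobp or Cd52, and 12 counts of Ptprc. All 9 compared stromal and endothelial genes were lower, and the 6 erythroid genes had 4 counts. All 9 compared pancreatic enzyme genes were lower, but a single cell held 95.2% of the Ctrb1 counts and 97.1% of the Cpa1 counts of the other kept cells. That cell was left out, and with it 1 of the 5 pit-like cells with a Ctrb1 count. The level of Ctrb1 was then 0.604 times that of the other kept cells.

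The pit-like cells formed a gradient in their other genes. Kept cells outside the gland-like set were divided by their share of rule genes into under 0.5% (1035 cells), 0.5 to 1% (46), 1 to 2% (58), 2 to 5% (76) and at least 5% (56). The last 3 bins are the pit-like cells. Dpcr1 was at 479, 2871, 3689, 5591 and 10687 CPM along these bins, and Sptssb at 65.7, 237, 669, 1002 and 1767. Aldh3a1 went from 140 to 533, 799, 1002 and 1417 CPM, so each of these 3 genes was higher in every next bin. Tff2 was at 577 CPM in the lowest bin and at 2990, 3397, 3665 and 3746 in the others, a step with a smaller rise above it. Clca1 was at 396 and 568 CPM in the first bins of pit-like cells and at 3175 in the last. Gkn1 and Gkn2 are part of the share that cuts the bins, so their levels along it are a description, with Gkn1 at 108, 344 and 7862 CPM and Gkn2 at 46.1, 395 and 6883 in the 3 bins of pit-like cells. The cell-cycle list held 0.364, 0.459, 0.328, 0.173 and 0.0605% of counts along the 5 bins, with median counts per cell of 3973, 2925, 3724, 3682 and 3097. Ly6a was at 1231, 459, 500, 414 and 57.6 CPM, whereas Clu was at 4633 CPM in the lowest bin and still at 3112 in the highest. Since the bins were cut from measured shares of abundant genes, they are ranges along the rule and not cell types, and 104 cells lay between 0.5% and 2%.

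**Figure D5:**
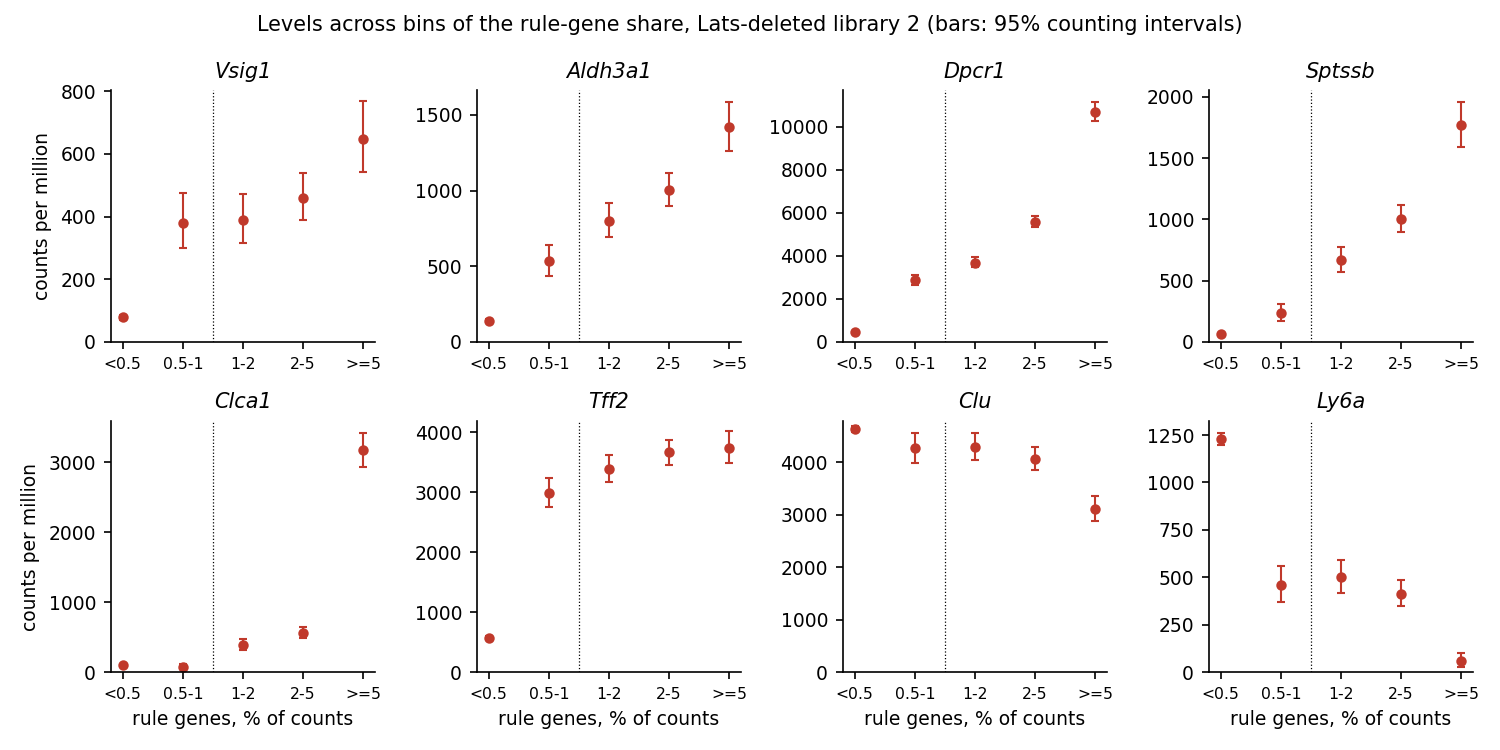
CPM (y axis, from 0) of 8 genes outside the rule in kept cells of Lats-deleted library 2 binned by their share of rule genes (x axis, %), with 95% counting intervals; bins to the right of the dotted line are the pit-like cells. Dpcr1, Sptssb and Aldh3a1 are higher in every next bin, Tff2 has a step at 0.5% and a smaller rise above it, and Ly6a is at 57.6 in the highest bin.

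When cells were clustered without the 5 genes of the rule, most pit-like cells still lay next to each other. The counts of each cell had been scaled by a total that included these 5 genes, so their influence was not fully removed. Pit-like cells were 14.7% of all kept cells of the library. Of the 15 nearest neighbours of a pit-like cell, 68.7% on average were pit-like, against 7.90% for Cldn18-positive, 3.70% for gland-like and 1.16% for remaining cells. The share was 22.0% for cells with 0.5 to 1% of rule genes and 42.5, 70.8 and 92.9% for the 3 bins of pit-like cells. Of the 12 clusters, 1 held 93 pit-like cells (48.9% of them) and a second held 51 (26.8%), and 80.9% and 94.4% of the cells in these clusters were pit-like. A further 23 and 17 pit-like cells lay in 2 clusters made up mostly of Cldn18-positive cells, and 6 in others.

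The pair of main clusters differed beyond the pit genes, a comparison chosen from the same counts and so a description. In the second cluster, Ndrg1 was at 1572 CPM against 93.2 in the largest, Hilpda at 620 against 15.98, Cldn4 at 511 against 21.3, Dusp1 at 507 against 10.7 and Cybrd1 at 401 against 2.66 from 1 count. Areg, a ligand of the EGF receptor, was at 875 CPM against 101, and F3, tissue factor, at 778 against 125. Ndrg1 and Hilpda are genes that low oxygen is known to induce, and Dusp1 is an immediate-early phosphatase gene. In the largest cluster, Ccnd2, a G1 cyclin, was at 1151 CPM against 312, Id1 at 890 against 308, Gstm1 at 631 against 138 and Cbr3 at 248 against 40.5. The immediate-early list held 0.519% of counts in the second cluster and 0.201% in the largest, the goblet list 0.334% and 0.111%, and the cell-cycle list 0.0774% and 0.173%. Median counts per cell were 4626 and 3236, and median mitochondrially encoded shares 4.18% and 4.32%. Whether depth contributed to these differences was not tested.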

How the data were processed

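The deposited values are counts per gene and barcode, 1 table per library, per the file headers, and their whole numbers were used as deposited. Per the submitters' processing notes, the tools were RSEM 1.3.0, Bowtie 1.1.1.1 and SAMtools 1.3.1 and the build was mm10, with no role given for each. Collapsing by molecular identifier is not given in the sources used here. The files hold 25289 gene columns, and 496 of 508 listed symbols were found. The cell rule, the lists and the genes named were chosen with earlier results of these data known. Named genes were the markers, the 15 with the highest lower bound of the ratio (30 counts or more, in 10% of the cells or more), the 15 with the lowest upper bound (10 expected counts or more), and up to 4 per list with the highest levels, without predicted gene models. Counts were summed over the cells of a set, levels are CPM of the plain total, and ratios have 95% conditional exact intervals, levels exact Poisson and shares exact binomial (Clopper-Pearson) intervals. A count of 0 was read as at most 3 counts. Cells were thinned with seed 1, and no doublet caller was run. Clustering, without the 5 genes of the rule, took 2000 variable genes, 30 components and 15 neighbours in scanpy 1.11.5, and leidenalg 0.10.2 with its resolution set to 1. TMM factors came from edgeR 4.0.16. Replicate libraries were not compared, since p-values would need pit-like cells in more than 1 library. The ratio script was tested on simulated data. Total counts were 2872497, 2247269, 4731529 and 9191916 for control libraries 1 and 2 and Lats-deleted libraries 1 and 2. Alternatives varied cell filters, the rule's threshold, scaling, the minimum count and the comparison cells.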

Additional observations from a re-analysis of the deposited data

Results flagged for a closer look

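Barcodes with under 500 counts entered no comparison of the pit-like cells, and in Lats-deleted library 2 they held Gkn1, Gkn2 and Tff1 at 0.707% of their counts. The level in the control libraries, measured in the same way, was 0.000348% and 0.00492%, and in Lats-deleted library 1 it was 0.00894%. Cldn18 was at 742 CPM in these barcodes of Lats-deleted library 2 and at 10.4, 7.57 and 18.7 CPM in those of control library 1, control library 2 and Lats-deleted library 1.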

How the results depend on the processing

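The number of pit-like cells was 190 and ranged from 132 to 236 over 5 other settings of the cell filters and the rule. The count of genes at least 2-fold higher was 341, and 10 of its 12 alternatives were within 1.5 times of it. A minimum of 20 expected counts left 5884 genes, of which 196 were higher and 798 lower, and a minimum of 1 expected count compared 15907 genes, of which 1295 were higher. The count of genes lower was 2109, and 11 of its 12 alternatives were within 1.5 times of it. The comparison with Cldn18-positive cells only, and that without the cell of each set holding the most counts of a gene, were chosen after seeing the data. Against remaining cells alone, Pgc was at a ratio of 1.91, Gast at 2.26 and Ins2 at 1.02, each reversed. Ins2 was also reversed, at 1.54, without the cells above the 95th percentile of counts, and a single cell held 98.2% of its other counts. Of all single-gene ratios recomputed, 366 stayed within the counting interval of the main value, 67 moved further and 4 were reversed, those above. Settings that left both sets at or under 3 counts gave no value. No paired analysis was possible because all pit-like cells come from 1 library and the groups compared are cells of that library. Limits include the single library and the small number of gland-like cells.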
